A study of Mus musculus with 6 samples.

Results

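Integrin chains and the sphingosine 1-phosphate receptor S1pr1, the genes with which a T cell enters tissue, stays there and leaves lymph nodes, were followed in regulatory T cells (Treg) with and without HDAC6, a deacetylase of the cytoplasm that acts on tubulin among other proteins. The genes chosen were Itgae, Itga4, Itgb1, Itgb7, Itgal, Itgb2, Itgav, Itgb8 and S1pr1, and every probe set that the platform annotation gives to 1 of them alone was taken. This gave 17 of the 22626 probe sets tested, for 8 of the 9 genes. Itgb8 had no such probe set and was not analysed here.

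The cells were CD4+CD25+ Treg of mice, separated magnetically, and total RNA was measured on 6 single-colour oligonucleotide arrays, 3 from HDAC6 knockout mice and 3 from wild-type mice of strain C57BL6. The age, the kind of knockout allele and the strain of the knockout mice were not given in the sources used here, nor whether a sample came from 1 animal or a pool. The design text calls the samples independent; if they shared animals, the p-values would measure technical spread only. Values are RMA values (robust multi-array averages) on the log2 scale, so a difference of 1 is a doubling. Array medians lay between 6.22 and 6.27 and lower quartiles between 4.14 and 4.25, and Pearson's r over probe sets was 0.994 to 0.996 within a genotype. The probe set of Hdac6 read 7.54, 7.86 and 7.64 in the knockout arrays and 8.54, 8.23 and 8.42 in the wild-type arrays. Its position with respect to the deletion is not known here, so it does not check the labels. Of the Treg markers, Foxp3 averaged 10.32 in the knockout arrays and 10.26 in the wild-type arrays, and Il2ra, which encodes CD25, 9.44 and 9.43.

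Integrins are heterodimers of an alpha and a beta chain that bind cell surface ligands and matrix once signals from inside the cell have switched them to an active form. In T cells the partners of Itgb7 decide between holding on to epithelium through E-cadherin (with Itgae, CD103) and entry into gut through MAdCAM-1 (with Itga4, CD49d), while Itga4 with Itgb1 binds VCAM-1 and Itgal with Itgb2 forms LFA-1, which binds ICAMs. Itgav with Itgb8 releases active TGF-β from its latent complex on the Treg surface. S1pr1 senses the sphingosine 1-phosphate gradient that draws T cells out of lymphoid tissue into lymph and blood.

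RefSeq's promoter table (build GRCm38.p6) held 5 of the genes: Itga4, Itgb1, Itgb7, Itgav and Itgb8. Those of Itga4 and Itgav are printed because every knockout array read above every wild-type array on the brightest probe sets of these genes, and that of Itgb7 because its product pairs with that of Itga4 while the genotypes overlapped. Each runs from 250 bases before the annotated start to 50 after it, 5′ to 3′ on the gene's strand. Capitals mark matches on either strand to TGTGGT (the RUNX core), CACCC (the KLF box), GGGCGG (the GC box) and TAAACA (the forkhead core).

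Itga4 chr2:79255176-79255475 (+ strand): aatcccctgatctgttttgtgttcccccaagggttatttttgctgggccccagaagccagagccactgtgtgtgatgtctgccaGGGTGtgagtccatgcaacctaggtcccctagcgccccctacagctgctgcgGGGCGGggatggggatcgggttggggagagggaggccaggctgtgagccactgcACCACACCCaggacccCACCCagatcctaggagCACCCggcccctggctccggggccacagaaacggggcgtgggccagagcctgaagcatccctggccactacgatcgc
Itgav chr2:83724147-83724446 (+ strand): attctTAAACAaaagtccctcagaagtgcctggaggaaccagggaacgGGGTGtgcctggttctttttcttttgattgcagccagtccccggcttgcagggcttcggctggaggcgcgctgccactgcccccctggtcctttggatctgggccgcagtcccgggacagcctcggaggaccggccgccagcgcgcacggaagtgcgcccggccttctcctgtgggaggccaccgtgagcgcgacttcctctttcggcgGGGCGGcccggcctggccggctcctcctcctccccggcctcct
Itgb7 chr15:102231886-102232185 (- strand): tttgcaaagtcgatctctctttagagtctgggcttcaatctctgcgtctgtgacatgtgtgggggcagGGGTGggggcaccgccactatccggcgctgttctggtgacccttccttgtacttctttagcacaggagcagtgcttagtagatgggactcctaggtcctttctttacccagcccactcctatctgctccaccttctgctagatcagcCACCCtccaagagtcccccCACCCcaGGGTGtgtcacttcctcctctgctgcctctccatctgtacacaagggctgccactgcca

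Itga4 held 4 matches to the KLF box, 1 to the GC box and 1 to the RUNX core, the last overlapping a KLF box. Itgav held 1 match each to the forkhead core, the KLF box and the GC box, and Itgb7 held 4 to the KLF box. Of the promoters not printed, that of Itgb1, whose genotypes overlapped, held 1 match to the GC box and 2 to the KLF box. That of Itgb8 held 3 to the KLF box. Of the 32851 promoters in the table, 57.5% held the KLF box, 35.7% the GC box, 16.8% the RUNX core and 13.4% the forkhead core. A match is a string of letters and shows no binding. Klf2, a KLF factor known to activate S1pr1, read 11.99, 12.13 and 12.18 in the knockout arrays and 12.25, 12.24 and 12.31 in the wild-type arrays, without overlap (log2 difference -0.16, SE 0.08, limma's adjusted p = 0.484 over genes). Runx1, a RUNX factor, differed by -0.20 (SE 0.11) and the genotypes overlapped. Its dimmer probe sets 1422865_at, 1427650_a_at and 1452530_a_at differed by -0.18, -0.19 and -0.10, and 1452531_at by 0.06 (SE 0.24), all with overlap.

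On the brightest probe set of each gene, the knockout arrays read higher than wild type for 3 alpha chain genes, Itgae, Itga4 and Itgav, and lower for S1pr1, while the genotypes overlapped for Itgal and for the beta chain genes Itgb7, Itgb1 and Itgb2. The dimmer probe sets of Itga4 and Itgav did not separate the genotypes. None of these differences passed the threshold. By limma with Benjamini-Hochberg adjustment over all probe sets, 0 of the 17 probe sets were under an adjusted p of 0.05, where 0.194% of all probe sets were. An unadjusted p under 0.05 was reached by 4 of 17 (23.5%), against 10.6% of all probe sets, and by 4 of 8 genes on their brightest probe set, against 11.2% of genes. The genotypes did not overlap for 4 of 17, with 3 above and 1 below, against 17.2% of all probe sets (7.68% above and 9.48% below). The exact permutation test of 3 arrays against 3 cannot give a two-sided p below 0.1. The median log2 difference was 0.01 over the 8 genes, and 0.00 over all genes.

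**Figure D1:**
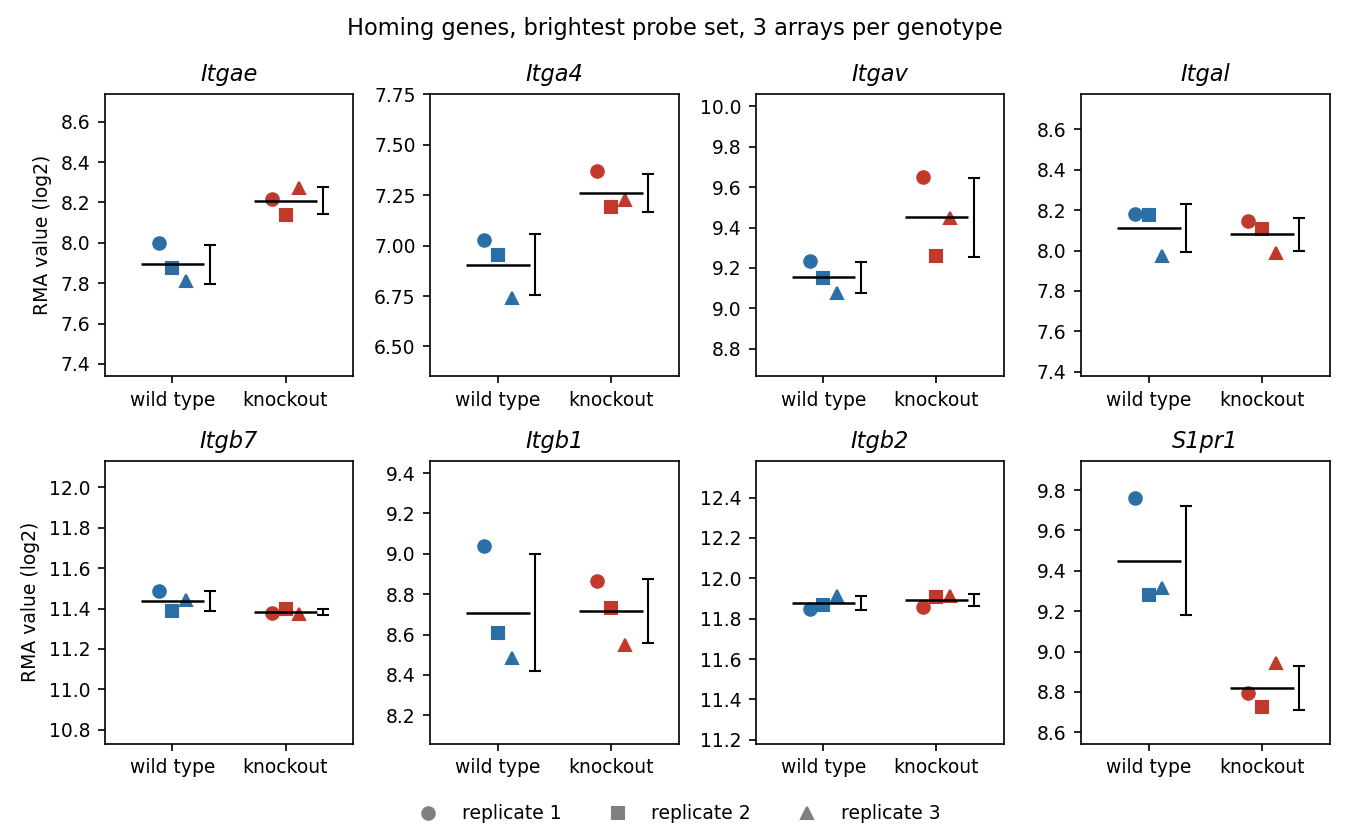
RMA value (log2) in each of the 6 arrays for the brightest probe set of each gene; each panel spans the same 1.4 log2 units, marker shapes give the replicate number, horizontal lines the mean and bars the SD (n = 3). All knockout points lie above all wild-type points for Itgae, Itga4 and Itgav and below them for S1pr1, and the points of Itgb2 span 0.07.

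Among the alpha chains, Itgae (probe set 1449216_at), whose product marks Treg of epithelial sites, read 8.22, 8.14 and 8.27 in the knockout arrays and 8.0, 7.87 and 7.81 in the wild-type arrays. Every knockout array was above every wild-type array, and the gap between the nearest arrays was 0.14. The log2 difference was 0.31 (SE 0.08, 95% interval 0.13 to 0.50), or 1.24-fold, with limma's adjusted p at 0.223. Leaving out 1 array gave 0.27 to 0.37.

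Itga4 had 3 probe sets, and they did not give the same picture. The brightest, 1421194_at, read 7.37, 7.19 and 7.22 in the knockout arrays and 7.03, 6.95 and 6.74 in the wild-type arrays. The genotypes did not overlap, and the log2 difference was 0.35 (SE 0.10, 95% interval 0.12 to 0.59; limma's adjusted p = 0.262). Leaving out 1 array gave 0.27 to 0.42. The second, 1450155_at, read 5.58, 5.34 and 5.25 in the knockout arrays and 5.63, 5.38 and 5.20 in the wild-type arrays, so its genotypes overlapped (log2 difference -0.01, SE 0.13). The third, 1427615_at, lay below the arrays' lower quartiles in all 6 arrays, between 2.83 and 3.68, with a difference of 0.09 (SE 0.24). The mean of the 3 probe sets differed by 0.14 (SE 0.10, limma's adjusted p = 0.663 over genes).

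Itgav, the chain that with Itgb8 activates TGF-β, also had 3 probe sets. On 1452784_at it read 9.65, 9.26 and 9.45 in the knockout arrays and 9.23, 9.15 and 9.08 in the wild-type arrays. The lowest knockout array was 0.02 above the highest wild-type array, so the separation was narrow. The difference was 0.30 (SE 0.11, 95% interval 0.04 to 0.56; limma's adjusted p = 0.403), and it was 0.20 without knockout replicate 1. The dimmer sets 1432296_a_at and 1421198_at differed by 0.02 (SE 0.18) and -0.18 (SE 0.09), both with overlap. The second of these read 4.50, 4.41 and 4.26 in the knockout arrays and 4.52, 4.70 and 4.49 in the wild-type arrays, opposite in sign to the brightest set. Over the 3 sets the mean differed by 0.05 (SE 0.06).

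Itgal, the alpha chain of LFA-1, read 8.15, 8.11 and 7.99 in the knockout arrays and 8.18, 8.18 and 7.97 in the wild-type arrays. The genotypes overlapped, and the difference of -0.03 (SE 0.09) had a 95% interval from -0.23 to 0.18.

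**Figure D2:**
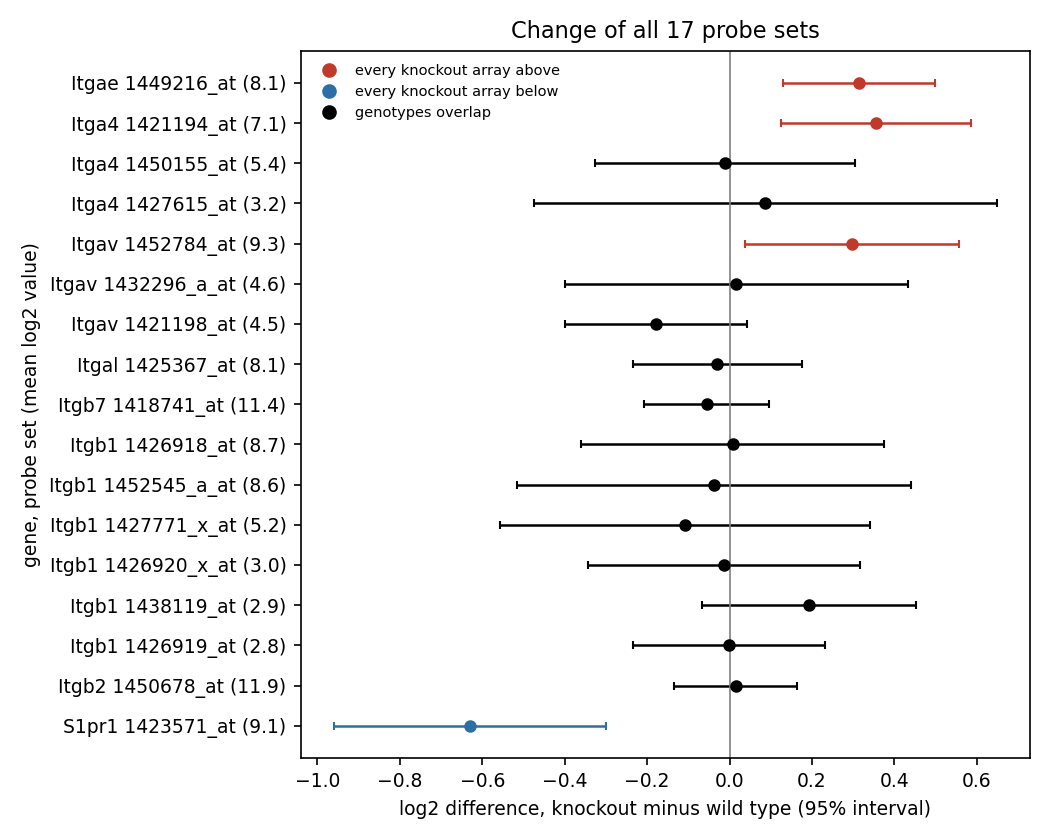
Log2 difference, knockout minus wild type, of each of the 17 probe sets with its 95% interval from limma; the number after each probe set is its mean log2 value over the 6 arrays. Coloured points have no overlap between genotypes, and the dimmer probe sets of Itga4 and Itgav lie at or below 0.09 while their brightest lie at 0.35 and 0.30.

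Among the beta chains, Itgb2 and Itgb7 varied less over the 6 arrays (SD 0.03 and 0.04) than the other measured members. Itgb2, shared by LFA-1 and the myeloid integrins, read 11.86, 11.91 and 11.91 in the knockout arrays and 11.85, 11.87 and 11.91 in the wild-type arrays. The difference was 0.01 (SE 0.06), and the 95% interval of -0.13 to 0.16 holds changes of up to 1.12-fold. Itgb7, the shared partner of Itgae and Itga4, read 11.38, 11.40 and 11.37 in the knockout arrays and 11.49, 11.39 and 11.44 in the wild-type arrays, a difference of -0.05 (SE 0.06, 95% interval -0.21 to 0.10) with overlap. Both sit in the bright part of the scale, where differences can be compressed, which was not tested here.

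Itgb1, the partner of the VLA integrins, varied more between arrays of a genotype than between genotypes. On the brightest of its 6 probe sets, 1426918_at, it read 8.87, 8.73 and 8.55 in the knockout arrays and 9.04, 8.61 and 8.48 in the wild-type arrays. Replicate 1 was the highest array in both genotypes, the wild-type range of 0.55 exceeded that of Itgb2 (0.07), and the difference was 0.01 (SE 0.16, 95% interval -0.36 to 0.37). The second probe set, 1452545_a_at, also had replicate 1 highest in both genotypes and gave a difference of -0.04 (SE 0.20). The other 4 differed by -0.11 to 0.19, and 3 of them lay below the lower quartiles in all arrays. A change of Itgb1 of up to 1.30-fold is inside the interval of the brightest set. That interval takes no account of the replicate number. With the number added to the model as a block, the differences stayed the same. The SE was then 0.09 for 1426918_at and 0.08 for 1452545_a_at.

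An integrin needs both chains, so each alpha value was set against its partner's within each array and expressed relative to the wild-type mean. For Itgae minus Itgb7 the knockout arrays stood at 0.38, 0.28 and 0.44, while those of wild type were at 0.06, 0.03 and -0.09. For Itga4 minus Itgb7 they stood at 0.52, 0.32 and 0.38 against 0.07, 0.10 and -0.17. In both pairs the alpha chain was higher relative to Itgb7 in every knockout array, by 0.37 (SD 0.08 in each genotype, n = 3) and 0.41 (SD 0.10 and 0.15). Itgb7 spanned 0.11 over the arrays, less than the gaps between genotypes of Itgae (0.14) and Itga4 (0.16). The lack of overlap in both pairs was thus already given by the alpha chains. Itga4 minus Itgb1 also did not overlap, at 0.30, 0.26 and 0.48 against -0.20, 0.15 and 0.06. Itgav minus Itgb1 overlapped, with knockout replicate 2 at 0.08 and wild-type replicate 3 at 0.15. For LFA-1, Itgal minus Itgb2 differed by -0.04 with overlap. These values rest on the brightest probe sets, show unequal change and not the number of dimers, and were given no test.

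**Figure D3:**
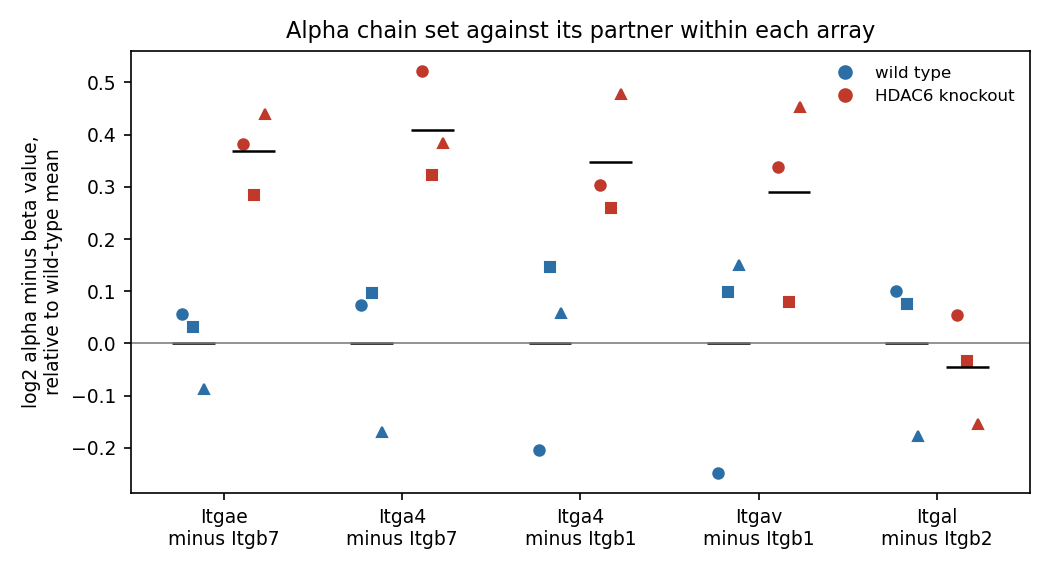
Log2 value of an alpha chain minus that of a beta chain partner in each array, relative to the wild-type mean of that pair; points are arrays (circle, square and triangle for replicates 1, 2 and 3) and short lines are means. Knockout points lie above all wild-type points in the first 3 pairs and overlap them for Itgav minus Itgb1 and Itgal minus Itgb2.

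S1pr1 had the widest separation of the set. It read 8.79, 8.73 and 8.94 in the knockout arrays and 9.76, 9.28 and 9.31 in the wild-type arrays. The highest knockout array was 0.34 below the lowest wild-type array, and wild-type replicate 1 stood above its group. The log2 difference was -0.63 (SE 0.14, 95% interval -0.96 to -0.30), 1.55-fold lower, with limma's adjusted p at 0.170. Without wild-type replicate 1 it was -0.48. The gene has 1 probe set, so no other could be set beside it. In whole preparations fewer cells with the transcript and less transcript per cell cannot be told apart.

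The other genes of the sphingosine 1-phosphate pathway gave 12 lower and 3 higher of 15 measured, with a median difference of -0.06, 0 past the threshold over all genes and 3 at an unadjusted p under 0.05, which 11.2% of all genes reached. S1pr4, another receptor for this lipid on lymphocytes, read 10.05, 10.01 and 10.03 in the knockout arrays and 10.19, 10.11 and 9.94 in the wild-type arrays, a difference of -0.05 (SE 0.08) with overlap. S1pr5, a further receptor of the lipid, had the lowest difference of the list, -0.40 (SE 0.17), with overlap. It was dim, with means of 3.63 in the knockout arrays and 4.03 in the wild-type arrays. Spns2, a transporter that exports the lipid, differed by 0.19 (SE 0.08), and the lipid phosphatase genes Plpp3 and Plpp1 by -0.27 (SE 0.11) and 0.45 (SE 0.18). Of these 3, Spns2 alone did not overlap, and the means of all 3 were below the array medians. The dimmer set of Plpp3, 1448908_at, differed by -0.05, and those of Plpp1, 1422619_at and 1425449_at, by 0.25 and 0.05, all with overlap. Gnai2, the G protein subunit through which the receptor signals, differed by 0.04 (SE 0.07).

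Across the 8 pathway lists, 96 genes other than the members were measured. Of these 38 were higher and 58 lower in the knockout, 12 did not overlap (12.5%, against 18.6% of all genes) and 0 passed over all genes, where 0.161% of genes did. By unadjusted p under 0.05 there were 8 (8.33%, against 11.2%). Over their 174 probe sets 1 passed, a dimmer one of St3gal6 (1449079_s_at), an enzyme that adds sialic acid to selectin ligands. It read 6.39, 6.49 and 6.40 in the knockout arrays and 7.28, 7.11 and 7.12 in the wild-type arrays and fell by 0.74 (SE 0.08, limma's adjusted p = 0.0180), and this call was lost when any 1 of the 6 arrays was left out. Its brighter probe set differed by -0.71 (SE 0.10, adjusted p = 0.0752 over genes).

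Among 15 selectin and selectin ligand genes 6 were higher and 9 lower (median -0.03). Chst2, a sulfotransferase for selectin ligands, differed by 0.37 (SE 0.09) and Selp, the P-selectin gene, by -0.32 (SE 0.10), both without overlap and neither past the threshold. A dimmer probe set of Selp, 1449906_at, differed by 0.20 (SE 0.21) with overlap. Cd44, a hyaluronan receptor of activated T cells, differed by 0.01 (SE 0.07).

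Of 14 other integrin chains, alpha and beta, 7 were higher and 7 lower, and 0 passed. Itga7, a laminin-binding chain, differed by -0.25 (SE 0.10) and was the only one of the 14 without overlap on its brightest probe set. Itga6, another laminin-binding chain, differed by -0.15 (SE 0.10) with overlap on that set, and by -0.49 (SE 0.09) without overlap on a dimmer one, which was looked at after its value was seen. Itgb5, a partner of Itgav, differed by 0.19 (SE 0.11) with overlap, and by 0.33 (SE 0.14) without overlap on the dim set 1456195_x_at. The brightest set of Itga9 overlapped. Its dimmer sets 1450029_s_at and 1420860_at did not, and differed in opposite directions, by -0.32 (SE 0.08) and 0.20 (SE 0.11). These dimmer sets too were looked at after their values were seen.

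The machinery that switches integrins on gave 6 higher and 11 lower of 17 (median -0.06). Rasgrp2, the exchange factor that activates Rap1, differed by -0.17 (SE 0.08) without overlap. Its dimmer probe sets 1438932_at and 1438933_x_at differed by -0.14 and -0.22, also without overlap. Fermt3, which encodes the beta tail binder kindlin-3, differed by -0.13 (SE 0.07) without overlap, but its dimmer sets by -0.06 with overlap. Pxn, the adaptor paxillin, differed by 0.17 (SE 0.10) with overlap. Its dimmer sets 1424027_at and 1426085_a_at differed by 0.20 without overlap and 0.14 with overlap. Talin (Tln1), which links beta tails to actin, differed by 0.06 (SE 0.08). Integrin ligands gave 5 higher and 4 lower of 9, with Icam2 at -0.15 (SE 0.07), Icam1 at 0.17 (SE 0.09) and Fn1 at 0.15 (SE 0.11). Of 8 genes that make and hold latent TGF-β, the cargo of Itgav with Itgb8, 5 were higher and 3 lower; Tgfb1 read 9.73, 9.72 and 9.72 in the knockout arrays and 9.66, 9.34 and 9.67 in the wild-type arrays, a difference of 0.17 (SE 0.10) without overlap. Nrros, which anchors latent TGF-β, differed by -0.23 (SE 0.13).

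Of 18 transcriptional regulators of homing genes 6 were higher and 12 lower (median -0.02). Tbx21, the T-bet gene, had the smallest p, at -0.44 (SE 0.15, limma's adjusted p = 0.339 over genes), with overlap. The TGF-β receptor gene Tgfbr2 and its mediator Smad3, which drive Itgae in T cells, differed by -0.07 (SE 0.08) and 0.09 (SE 0.12).

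**Figure D4:**
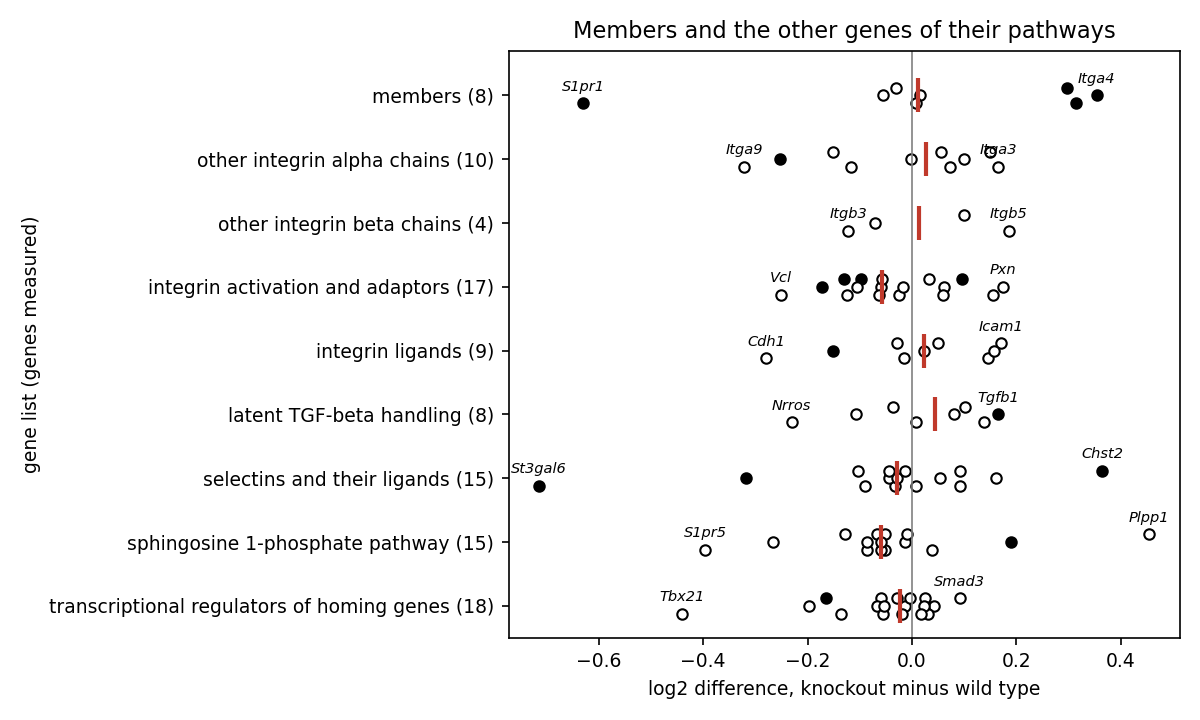
Log2 difference, knockout minus wild type, of each measured gene (brightest probe set) among the 8 members and in the 8 pathway lists; filled points have no overlap between genotypes, red ticks are list medians, and the lowest and highest gene of each row is named. S1pr1 at -0.63 and St3gal6 at -0.71 are the lowest points plotted, and the list medians lie between -0.06 and 0.04.

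Genes of naive and central T cells, which also carry S1pr1, were lower in 5 of 6 cases. Il7r, Satb1, Ccr7 and Lef1 differed by -0.57, -0.39, -0.23 and -0.35 without overlap, and Foxp1 by -0.02 with overlap. The dimmer Foxp1 probe sets 1435221_at and 1435222_at differed by -0.32 and -0.17 without overlap, and its remaining sets overlapped. Bach2 was higher by 1.30, also without overlap. It read 9.28, 9.43 and 9.43 in the knockout arrays and 6.92, 8.59 and 8.72 in the wild-type arrays. The summed level of the list, as its mean, was 10.13 to 10.24 in the knockout arrays and 10.07 to 10.36 in the wild-type arrays. Without Bach2, the only higher gene of the list, the means of the other 5 genes did not overlap, at 10.27 to 10.40 and 10.58 to 10.70. That gene was left out after its values were seen, so this separation is no test of the list. A dimmer probe set of Il7r, the receptor for interleukin-7, passed the threshold: it read 9.32, 8.96 and 8.83 in the knockout arrays and 10.41, 10.30 and 10.17 in the wild-type arrays and fell by 1.26 (SE 0.14, limma's adjusted p = 0.0231). That call was kept without knockout replicate 1 (0.0288) or without the third wild-type array (0.0497). It was lost when any 1 of the other 4 arrays was left out (0.0749 to 0.139).

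Effector T cell genes gave 5 higher and 4 lower of 9, with list means of 8.39 to 8.68 and 8.58 to 8.69, and single genes differed in both directions. Cxcr6, a chemokine receptor that guides T cells into tissue, was the only gene past the threshold over all genes in any of the lists. It fell by 1.05 (SE 0.12, limma's adjusted p = 0.0310 over genes) on its brightest probe set and by 1.12 (SE 0.11, adjusted p = 0.0152 over probe sets) on the other, 1422812_at. The call of the first probe set, over probe sets, was kept without wild-type replicate 1 (0.0368) and lost without any 1 of the other arrays (0.0616 to 0.133). The call of the second was lost without replicate 1 or 2 of the knockout (0.0809 and 0.0891) and without replicate 2 of wild type (0.0749). Il10, a suppressive cytokine, differed by 0.81 (SE 0.15), Ccr2, a receptor of inflamed tissue, by -0.72 (SE 0.16) and the transcription factor Maf by 0.33 (SE 0.08), each without overlap and none past the threshold.

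Plasma cell genes, among them Jchain and Sdc1, were higher in 5 of 6 and their means did not overlap, at 8.57 to 9.18 in the knockout arrays and 8.25 to 8.47 in the wild-type arrays. B cell genes were lower in 5 of 9 (6.28 to 6.85 and 6.74 to 6.98). Ms4a1 differed most, by -1.13 without overlap, while Fcer2a, Pax5, Cd79a and Cd22 were higher by 0.29, 0.17, 0.14 and 0.12 with overlap. CD8 T and NK cell genes were lower in 5 of 7, at 6.66 to 6.95 and 6.83 to 7.11, with the granzyme gene Gzma at -1.03 (SE 0.25) and Cd8b1 at -0.37 (SE 0.09), both below without overlap, and Cd8a at 0.25 (SE 0.08), above without overlap. None of these 3 passed the threshold, and a dimmer probe set of Cd8a, 1451673_at, differed by -0.05 with overlap. Myeloid genes were lower in 7 of 12, at 5.66 to 6.10 and 5.81 to 6.53. Lyz2 averaged 6.76 in the knockout arrays and 7.20 in the wild-type arrays, with overlap. Cd209a differed by 0.34 and Cd14 by -0.19, each without overlap. Platelet genes, at means of 4.91 to 5.06 and 4.93 to 4.99, included the dim markers Pf4 and Ppbp, whose means were below 4. Stromal and endothelial genes were higher in 6 of 7. Their means narrowly did not overlap, at 5.471 to 5.568 in the knockout arrays and 5.392 to 5.468 in the wild-type arrays, while each single gene overlapped. Erythroid genes were lower in 2 of 3 (4.09 to 4.30 and 4.25 to 4.31), and Treg identity genes higher in 5 of 7 (9.94 to 10.01 and 9.86 to 9.96). RMA values have no zero and no detection calls were used. B, plasma, NK and myeloid cells can also carry integrin transcripts, and the part of such cells in the differences of Itgae, Itga4, Itgav and S1pr1 was not tested.

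The genes whose 6 array values, centred on their own mean, lay closest to those of S1pr1 were Rpap1, 2610524H06Rik and Kat2b, with root mean square differences of 0.09, 0.10 and 0.10 where S1pr1 itself varied by 0.36. Closest to Itgae were Ccng2, Scd2 and Fancc (0.03, 0.04 and 0.04, against 0.17). Closest to Itga4 were Bmpr1a, Cpeb2 and Fam111a (0.03, 0.04 and 0.05, against 0.20), and closest to Itgav were Odc1, Gjb2 and Batf (0.03, 0.04 and 0.05, against 0.19). These are the 3 nearest of 12393 genes in each case, over 6 arrays.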

How the data were processed

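The authors deposited 1 table of log2 values for 6 arrays, 3 per genotype, made by RMA per the submitters' processing notes, with no version given; the log2 scale was read from the range of the values. RMA subtracts background, equalizes the arrays' distributions and merges each set's probes. Differences of dim and very bright sets can be compressed in such values. Of 22690 probe sets, 64 controls were left out. Names came from the platform annotation, updated by gene ID through RefSeq (GRCm38.p6); 20380 probe sets had 1 gene symbol, 691 several and 1555 none. The genotype comparison used limma 3.58.1 under R 4.3.3 (lmFit, eBayes, genotype as the only term, two-sided), with Benjamini-Hochberg adjustment over all probe sets, or over 12393 genes by the brightest probe set where stated. Errors are SE from limma or SD. The number of arrays limits precision: the median SE was 0.10. In simulated data for this comparison (22626 probe sets, 5 runs of 200 changed) 29.9% of log2 changes of 0.5, 83.6% of 1 and 98.2% of 2 were recovered. The members, lists and tests were chosen with earlier results of these data known. Named genes were all members, up to 3 per list with the smallest p, some receptors, regulators and markers, and the 3 nearest in pattern. Same-numbered arrays were checked for shared deviations (r = 0.22, -0.09 and 0.10 for numbers 1, 2 and 3). The highest r of each knockout array with a wild-type array of another number was -0.05, 0.09 and 0.13. Only number 1 thus stood above its other pairings. The numbers were not taken as pairs in the main test, and a replicate block was run as an alternative. Alternatives covered scaling (median centring, quantile normalization), the model (replicate block, array weights, trend and robust eBayes, an unmoderated test), filters by mean, a threshold of 0.1, a 1.5-fold minimum, the choice of a gene's probe set, and each array left out. Plots used matplotlib 3.10.9 (Python 3.11.15).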

Additional observations from a re-analysis of the deposited data

How the results depend on the processing

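The count of member probe sets past the threshold was 0 under each of the 16 settings run on probe sets, and that of member genes was 0 with the replicate block, both other choices of a gene's probe set and each array left out, the settings run for genes. With limma's trend and robust settings the adjusted p of S1pr1 was 0.0819 (0.0819 to 0.434 over its settings). The 4 changes without overlap kept their sign in 64 of 64 recalculations, but most of these outcomes were fixed in advance. Where genotypes do not overlap, leaving out or weighting arrays cannot turn the sign. The other models, filters and thresholds left the difference itself unaltered. Only quantile normalization and median centring could have turned it. The replicate block gave 0 member calls, 0 in the pathway lists and 27 over the array, against 1 and 44 without it. Over the array the count was 147 with trend and robust settings, 86 with array weights, 121 at a threshold of 0.1 and 0 with the unmoderated test, and 5 to 51 with 1 array left out. In the pathway lists it was 3 with trend and robust settings, 2 with array weights, 2 at a mean of at least 6, 2 at a threshold of 0.1, 0 with the unmoderated test and 0 without each array. The filters left 9 (mean of at least 6) and 10 (upper 60%) of the 17 probe sets. Small changes turned sign: Itgav 1432296_a_at to -0.0066 with quantile normalization, and Itgb1 1426919_at to 0.00055 with median centring and 0.044 with array weights. With 1 array left out Itga4 1450155_at ranged from -0.11 to 0.10 and 1427615_at from -0.14 to 0.28, Itgb1 1426918_at from -0.11 to 0.17, 1452545_a_at from -0.18 to 0.15, 1427771_x_at from -0.23 to 0.10, 1426920_x_at from -0.16 to 0.12 and 1426919_at from -0.069 to 0.095, Itgal from -0.10 to 0.016 and Itgav 1432296_a_at from -0.16 to 0.20. The cause was not tested.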
